A study of Homo sapiens with 30 samples.

Results

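Human small airway epithelial (SAE) cells exposed for 1 h to multi-walled carbon nanotubes (MWCNT) at 100 µg/ml were compared with the same cells exposed for 1 h to MWCNT at 10 µg/ml. The comparison used every array labelled with either exposure, 3 biological replicates of each dose, which is 6 of the 30 arrays of the study, and it covered 11963 genes. SAE cells line the small bronchioles and were bought as cultures, and MWCNT are fibres of rolled carbon sheets that can be inhaled. The other 24 arrays held MWCNT at both doses for 24 h, nanobelts of titanium dioxide (TiO2, thin ribbons of the oxide) at 10 and 100 µg/ml for 1 and 24 h, and cells with no particle at each time, again with 3 replicates of each. The particles were added to suspended cells as these were put into flasks, so every culture in these arrays, the unexposed ones included, had been detached with trypsin, and only the adherent cells were collected. The number of donors is not given in the labels, and without it the p values measure the spread between these cultures.

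Total RNA was hybridised to Affymetrix arrays, and the authors deposited log2 expression values for each probe set. A level is such a value, a difference is a difference of group means on that scale, and differences are given with the standard error (SE) of the fit, whereas means have the SD over 3 arrays. The levels of different genes come from different probes and were not set against each other. In bulk RNA a change in the number of cells of a kind and a change of RNA per cell cannot be told apart. The medians of the 6 arrays lay between 7.16 and 7.18, and the gap between 3' and 5' probes of GAPDH, a sign of RNA quality, was 0.048 to 0.094 at 100 µg/ml and 0.049 to 0.11 at 10 µg/ml on the log2 scale. Of the epithelial genes, the keratin KRT18 averaged 13.11 ± 0.012 at 100 µg/ml and 13.12 ± 0.012 at 10 µg/ml, the keratin KRT8 11.89 ± 0.03 at 100 µg/ml and 11.86 ± 0.051 at 10 µg/ml, and the adhesion protein CDH1 8.01 ± 0.055 at 100 µg/ml and 8.09 ± 0.059 at 10 µg/ml (SD, n = 3 each), all above the table median of 7.18. Among basal cell keratins, KRT5 lay near that median with 7.19 ± 0.069 at 100 µg/ml and 7.09 ± 0.095 at 10 µg/ml, while KRT14 was below it with 3.94 ± 0.07 at 100 µg/ml and 3.90 ± 0.21 at 10 µg/ml. Of the 7 measured markers of ciliated cells and the 9 of endothelial cells, 0 had a mean above the table median, and for immune cells it was 1 of 12. It was 5 of 8 for basal, 3 of 11 for secretory and 1 of 12 for squamous markers. For fibroblast markers it was 4 of 11, for alveolar markers 3 of 8 and for all genes 6923 of 11963.

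Within minutes of a stimulus, cells switch on immediate early genes, whose promoters are loaded with factors that only need to be activated. Serum response factor (SRF) binds the CArG box and, with cofactors that follow kinase signals or the pool of free actin, drives early factors and parts of the actin cytoskeleton. YAP, a coactivator held back in the cytoplasm by the Hippo kinases and released when cells spread or are under tension, works through TEAD proteins and switches on CCN2, ANKRD1 and others. Feedback genes, among them the dual specificity phosphatases, then shut the kinase signals off.

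At 100 µg/ml, 67 genes had higher and 9 had lower expression than at 10 µg/ml (limma with Benjamini-Hochberg adjustment, adjusted p under 0.05), together 0.635% of the genes, with 0.56% higher and 0.0752% lower. The largest rises were those of FILIP1L (1.42), GLIPR1 (1.40), EGR3 (1.34) and NR4A1 (1.34). The higher genes included transcription factors of the early response (EGR3, NR4A1, NR4A3, FOSB), the actin-binding protein TAGLN and targets of YAP (ANKRD1, THBS1, F3). The lower genes included DDIT4, an inhibitor of the growth kinase mTORC1, TXNIP, which restrains glucose uptake, and the zinc exporter SLC30A1. The median difference was 0.468 for the 67 and -0.355 for the 9, and the smallest in size were 0.21 for BCL10, an adaptor of NF-kB signalling, and -0.30 for CDHR5, a protocadherin-related protein. Over 1.5-fold, 23 genes were higher and 1 was lower. The 3 arrays of one dose did not overlap the 3 of the other in any of the 76, a property that 1527 genes (12.8%) had in either direction. In 63 of the 67 and 6 of the 9 genes the dose with the higher mean averaged above the median of the table.

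The count rests on all 6 arrays, since it was 60, 52 and 47 without replicate 1, 2 and 3 at 100 µg/ml and 40, 60 and 46 without replicate 1, 2 and 3 at 10 µg/ml. In every one of these 6 fits 37 of the 76 genes kept their call, 39 lost it in at least 1, and 7 lost it in all 6 (ACTN1, BDNF, KLF6, LBH, SOX4, TRIB1 and TSC22D1). Replicate 1 had the lowest level of the 3 arrays at 10 µg/ml in 48 of the 67 higher genes and replicate 2 the highest in 53. With 3 arrays in each group an exact permutation test has 0.1 as its smallest two-sided p, and limma instead pools the spread over genes and groups.

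A promoter sequence of 300 bases, most of them ahead of the start of the gene (RefSeq, GRCh38.p14), was at hand for 54 of the 67 higher genes, 7 of the 9 lower genes and 9563 of all 11963. A CArG box, searched on both strands as its standard 10 letters, occurred in 8 of the 54 (14.8%), against 1.28% of all promoters, and in 0 of the 7. The 8 genes were FILIP1L, GBP1, SRF, TPM4, RND3, AKAP12, CNN2 and FHL2. The following 4 are shown because they carry the box ahead of the start of an actin or SRF gene that rose, and capitals mark the box. SRF itself (chr6:43171019-43171318, plus strand) holds a pair, at -30 and -10 from the start counted to the first base of the box, FILIP1L (chr3:99876124-99876423, minus strand) has it at -60, TPM4 (chr19:16067288-16067587, plus strand) at -173 and FHL2 (chr2:105438464-105438763, minus strand) at -101.
SRF: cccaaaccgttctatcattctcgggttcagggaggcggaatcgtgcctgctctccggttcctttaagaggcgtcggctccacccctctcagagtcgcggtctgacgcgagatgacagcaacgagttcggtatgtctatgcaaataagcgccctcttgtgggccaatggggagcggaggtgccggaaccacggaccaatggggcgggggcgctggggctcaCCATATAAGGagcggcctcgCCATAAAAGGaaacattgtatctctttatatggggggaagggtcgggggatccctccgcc
FILIP1L: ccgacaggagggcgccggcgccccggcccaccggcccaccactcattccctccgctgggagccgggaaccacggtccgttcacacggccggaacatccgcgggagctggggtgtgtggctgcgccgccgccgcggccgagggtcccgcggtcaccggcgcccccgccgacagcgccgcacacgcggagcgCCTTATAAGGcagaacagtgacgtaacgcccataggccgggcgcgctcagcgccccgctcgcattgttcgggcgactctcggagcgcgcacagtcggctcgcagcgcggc
TPM4: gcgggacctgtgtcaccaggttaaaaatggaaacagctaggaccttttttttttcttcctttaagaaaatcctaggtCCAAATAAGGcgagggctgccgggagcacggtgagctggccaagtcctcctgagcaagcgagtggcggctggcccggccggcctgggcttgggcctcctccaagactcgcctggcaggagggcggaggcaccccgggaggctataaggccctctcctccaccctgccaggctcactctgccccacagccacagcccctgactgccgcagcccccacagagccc
FHL2: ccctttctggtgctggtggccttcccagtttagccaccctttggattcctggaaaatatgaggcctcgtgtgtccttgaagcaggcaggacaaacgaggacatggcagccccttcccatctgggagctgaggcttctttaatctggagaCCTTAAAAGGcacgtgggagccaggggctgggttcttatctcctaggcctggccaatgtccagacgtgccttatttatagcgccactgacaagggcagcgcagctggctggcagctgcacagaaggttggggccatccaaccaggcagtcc

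The TEAD site GGAATG, on either strand, occurred in 8 of the 54 promoters (14.8%), against 11.3% of all. The 8 were FILIP1L, ANKRD1, NR4A3, THBS1, DKK1, VCL, CCN2 and SOX4. The promoters of the YAP targets ANKRD1 (chr10:90921038-90921337, minus strand), with sites at -220 and -128, and CCN2 (chr6:131951323-131951622, minus strand), with 3 sites between -169 and -95, are shown with the sites in capitals.
ANKRD1: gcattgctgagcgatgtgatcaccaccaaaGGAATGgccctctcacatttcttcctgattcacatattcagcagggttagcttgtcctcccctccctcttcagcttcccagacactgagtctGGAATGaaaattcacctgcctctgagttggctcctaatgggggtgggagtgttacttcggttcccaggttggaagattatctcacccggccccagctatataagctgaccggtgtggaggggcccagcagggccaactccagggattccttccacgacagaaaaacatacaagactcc
CCN2: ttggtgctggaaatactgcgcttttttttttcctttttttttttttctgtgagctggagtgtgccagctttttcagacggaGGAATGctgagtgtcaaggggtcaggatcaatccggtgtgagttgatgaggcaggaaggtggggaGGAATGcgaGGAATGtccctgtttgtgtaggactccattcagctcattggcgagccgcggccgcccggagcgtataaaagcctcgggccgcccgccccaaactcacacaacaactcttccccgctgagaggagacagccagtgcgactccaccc

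Of the other motifs, the EGR site GCGGGGGCG was in 10 of the 54 promoters (18.5%), against 7.78% of all, and the AP-1 site TGANTCA in 3 (5.56%), against 5.43%. The cyclic AMP response element TGACGTCA was in 0 of the 54, against 3.06% of all, and in 1 of the 7 promoters of lower genes, that of FRAT1. The core of the aryl hydrocarbon receptor site, GCGTG, was in 31 of the 54 (57.4%) and in 5 of the 7 lower genes (71.4%), against 46.6% of all. The metal response element core TGCNCNC was in 5 of the 7 lower genes (71.4%), SLC30A1 among them, and in 32 of the 54 higher genes (59.3%), against 62.5% of all. Both strands were read for each, the motifs can overlap within a window, and a match shows the letters and not a bound factor.

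Among the early transcription factors, 7 of 25 measured genes rose and 0 fell, against 0.56% and 0.0752% of all genes. This list and those below were written with earlier results of these data known, so their counts describe and do not test. Of the 25 differences 21 were above 0, against 5430 of 11963 for all genes. The median of the list was 0.226, with -0.00836 for all genes. EGR3, a zinc finger factor induced by growth factor and calcium signals, had levels of 11.48, 11.26 and 11.40 on the 100 µg/ml arrays, against 9.76, 10.25 and 10.09 on the 10 µg/ml arrays. The lowest array of the higher dose was thus more than 1 log2 unit above the highest of the lower dose, and EGR3 rose by 1.34 ± 0.17 (SE), 2.54-fold (adjusted p = 8.11e-05). NR4A1, a nuclear receptor without a known hormone, had 10.50, 10.37 and 10.41 at 100 µg/ml, against 9.12, 9.13 and 9.02 at 10 µg/ml. Its replicates were among the tightest of the large changes, and it rose by 1.34 ± 0.095, 2.53-fold, with the smallest adjusted p of the comparison (5.3e-09). A pair of other probe sets of NR4A1 above the table median differed by 0.00097 and 0.21, and with the mean of all its probe sets the difference was 0.51. NR4A3, a receptor of the same family, had 8.37, 8.49 and 8.80 at 100 µg/ml, against 7.30, 7.53 and 7.41 at 10 µg/ml. Its 10 µg/ml arrays lay around the unexposed ones (7.41, 7.41 and 7.37), and it rose between the doses by 1.14 ± 0.15 (adjusted p = 9.37e-05), or by 0.66 with the mean of all its probe sets. FOSB, a subunit of the AP-1 factor, had 10.40, 10.54 and 10.22 at 100 µg/ml, against 9.65, 9.42 and 9.51 at 10 µg/ml, a rise of 0.86 ± 0.14 (adjusted p = 0.00131). Here replicate 1 was the highest of the lower dose and replicate 3 the lowest of the higher dose, and the groups stayed more than 0.5 apart.

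SRF averaged 10.73 ± 0.044 at 100 µg/ml and 10.16 ± 0.036 at 10 µg/ml (SD, n = 3 each), a rise of 0.57 ± 0.062 (adjusted p = 6.78e-06), and lost its call with the mean of all its probe sets (adjusted p = 0.0516). The zinc finger factors KLF7 and KLF6 rose by 0.48 ± 0.069 (adjusted p = 0.000191) and 0.51 ± 0.11 (adjusted p = 0.0229), and KLF6 lost its call in each of the 6 fits without 1 array, with an adjusted p of up to 0.117. The best known members of this class were not called, and they are named here after their values were seen. EGR1 averaged 13.61 ± 0.11 at 100 µg/ml and 13.69 ± 0.05 at 10 µg/ml, a difference of -0.078 ± 0.083 (adjusted p = 0.937). These levels lay near the top of the scale, whose highest value was 14.65. FOS differed by 0.047 ± 0.11 (adjusted p = 0.985), JUN by 0.19 ± 0.12 (0.863) and NR4A2, the third receptor of the NR4A family, by -0.011 ± 0.12 (0.995). ATF3, a stress-induced factor of the same class, differed by 0.38 ± 0.11 with an adjusted p of 0.217.

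Outside the list, further regulators of transcription were called. CITED2, which binds the coactivators CBP and p300, had 10.98, 10.93 and 10.95 at 100 µg/ml, against 9.96, 10.21 and 10.06 at 10 µg/ml, and rose by 0.88 ± 0.12 (adjusted p = 8.3e-05). The 3 arrays of the higher dose lay within 0.1 of each other, and the other bright probe set of the gene differed by 0.93. ARID5B, a DNA-binding protein of the ARID family, averaged 11.24 ± 0.11 at 100 µg/ml and 10.53 ± 0.029 at 10 µg/ml and rose by 0.72 ± 0.081 (adjusted p = 1.28e-05). SOX9, which lay below the table median at 10 µg/ml (6.98 ± 0.24), rose by 0.63 ± 0.12, ZNF281 by 0.59 ± 0.13, the repressor BCL6 by 0.47 ± 0.084, SOX4 by 0.25 ± 0.058 and LBH by 0.34 ± 0.077. The histone demethylase KDM3A rose by 0.30 ± 0.065, the elongation factor ELL2 by 0.36 ± 0.081 and TSC22D1 by 0.24 ± 0.056. Among the 6 fits without 1 array, calls were lost by SOX9 in 4 (adjusted p up to 0.114), ZNF281 in 4 (adjusted p up to 0.149), SOX4 in 6 (adjusted p up to 0.345), LBH in 6 (adjusted p up to 0.201), KDM3A in 5 (adjusted p up to 0.152), ELL2 in 4 (adjusted p up to 0.261) and TSC22D1 in 6 (adjusted p up to 0.22).

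**Figure D1:**
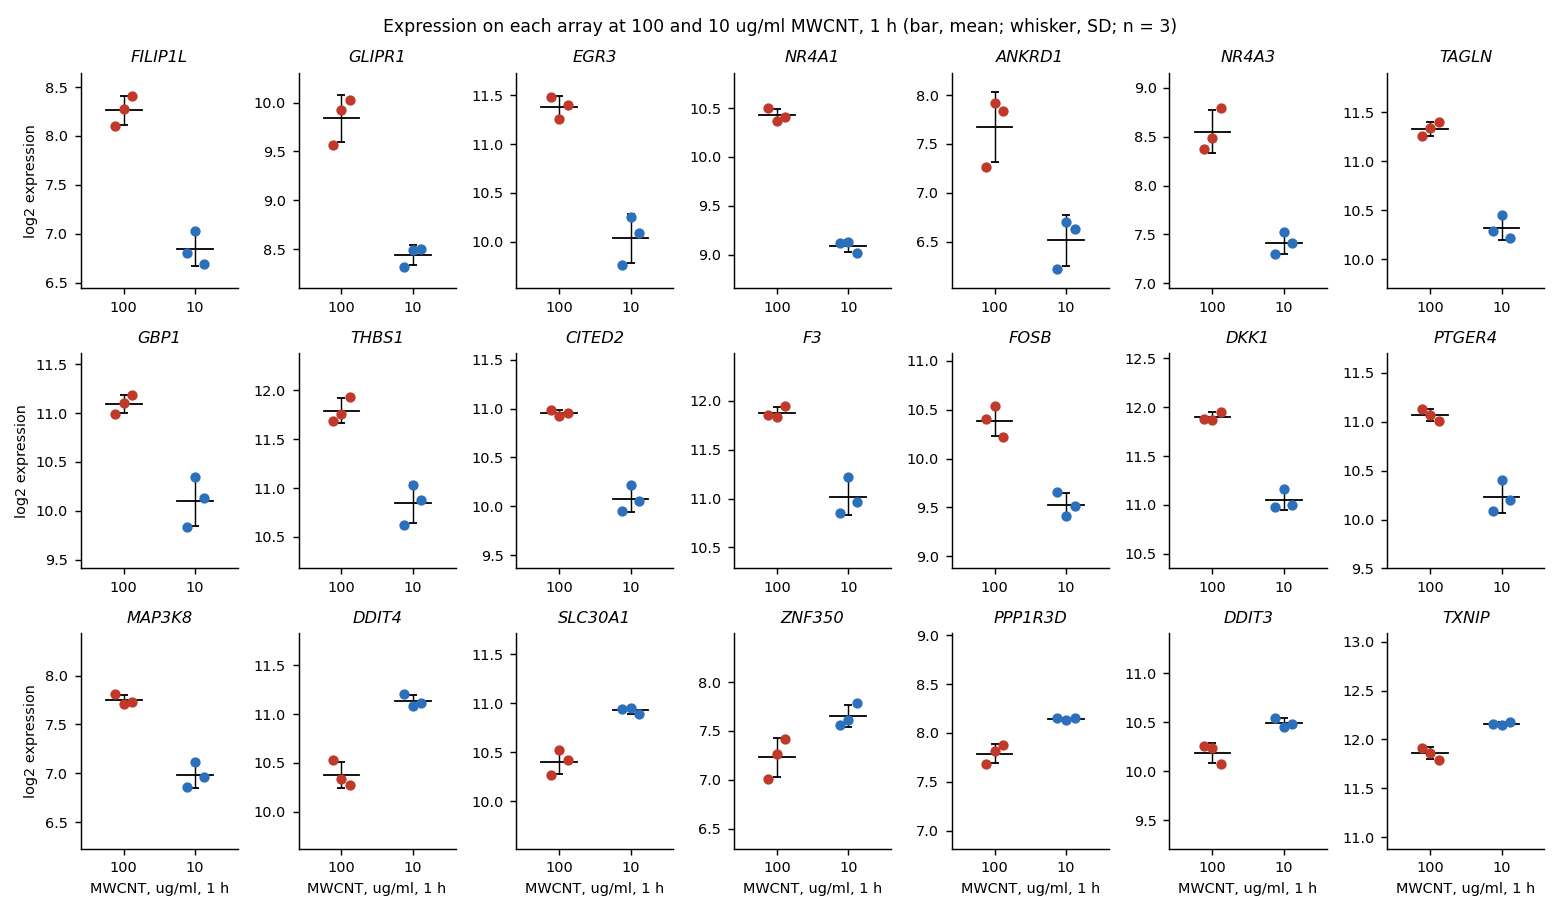
Log2 expression of the 15 genes with the largest rise and the 6 with the largest fall at 1 h that met the rule for values by array, each array a point and each bar the mean of 3, with MWCNT 100 µg/ml to the left of MWCNT 10 µg/ml. The rule required that the 3 points of one dose lie clear of the 3 of the other. The 21 genes run from FILIP1L (difference 1.42) to MAP3K8 (0.77) among the higher and DDIT4 (-0.75) to TXNIP (-0.30) among the lower.

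The list of SRF targets and actin cytoskeleton genes held the most called members, with 10 of 25 higher and 0 lower, 21 of 25 above 0 and a median of 0.242. For all genes 0.56% were higher, 5430 of 11963 were above 0 and the median was -0.00836. This list too was written with earlier results of these data known, so its count is a description. FILIP1L, a relative of a protein that binds the actin crosslinker filamin A, had 8.10, 8.27 and 8.40 at 100 µg/ml, against 6.80, 7.02 and 6.69 at 10 µg/ml. These were levels below the table median at the lower dose and above it at the higher dose, and the rise of 1.42 ± 0.14, 2.68-fold, was the largest of the comparison (adjusted p = 2.2e-06). TAGLN, or transgelin, an actin-binding protein of contractile cells, had 11.26, 11.35 and 11.40 at 100 µg/ml, against 10.29, 10.45 and 10.21 at 10 µg/ml, and rose by 1.02 ± 0.18 (adjusted p = 0.00332). Its groups were over 0.8 apart, and replicate 3 of the lower dose was the lowest array. EPPK1, a plakin that holds keratin filaments, averaged 9.27 ± 0.22 at 100 µg/ml and 8.55 ± 0.14 at 10 µg/ml (SD, n = 3 each) and rose by 0.73 ± 0.13 (adjusted p = 0.00304). TUFT1, or tuftelin, a target of SRF and its actin-regulated cofactors, rose by 0.63 ± 0.084 and was in each array of the higher dose near 12.32.

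Proteins that build and anchor actin filaments moved by less. The tropomyosins TPM4 and TPM1, which coat the filament, rose by 0.42 ± 0.087 and 0.39 ± 0.06 (adjusted p = 0.0142 and 0.000379). All 3 other bright probe sets of TPM1 differed by at least as much, between 0.48 and 0.78. VCL, or vinculin, of focal adhesions, rose by 0.37 ± 0.056 (adjusted p = 0.000385), a call it lost with the mean of all its probe sets (adjusted p = 0.408). ACTN1, an alpha-actinin, averaged 12.04 ± 0.02 at 100 µg/ml and 11.78 ± 0.02 at 10 µg/ml and rose by 0.27 ± 0.057, the LIM protein FHL2 by 0.26 ± 0.05 and the calponin CNN2 by 0.34 ± 0.07. The 10 µg/ml value of CNN2 did not lie above that of unexposed cells (9.77 ± 0.043 with 10 µg/ml and 9.77 ± 0.036 without). Beyond the list, the actin bundler LIMA1 rose by 0.51 ± 0.069 (adjusted p = 0.000102) and the septin regulator CDC42EP3 by 0.41 ± 0.066 (adjusted p = 0.000903). AKAP12, a scaffold for protein kinase A, rose by 0.36 ± 0.082, and RND3, a small GTP-binding protein, by 0.42 ± 0.096. In fits without 1 of the 6 arrays the calls ended for TPM4 in 3 (adjusted p up to 0.124), ACTN1 in 6 (adjusted p up to 0.121), FHL2 in 1 (adjusted p up to 0.0567), CNN2 in 4 (adjusted p up to 0.103), AKAP12 in 4 (adjusted p up to 0.257) and RND3 in 5 (adjusted p up to 0.271). The actin gene ACTB itself, named after its values were seen, differed by 0.038 ± 0.048 (adjusted p = 0.956).

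Of 19 measured targets of YAP, 7 rose and 0 fell, with a median of 0.0676. Of all genes 0.56% rose, and the median of all was -0.00836. The YAP list was also written with earlier results of these data known, and its count is a description. ANKRD1, a nuclear ankyrin repeat protein, had 7.26, 7.92 and 7.84 at 100 µg/ml, against 6.22, 6.70 and 6.63 at 10 µg/ml. Replicate 1 was the lowest of both doses, the groups stood more than 0.5 apart, and ANKRD1 rose by 1.16 ± 0.22 (adjusted p = 0.00814). That call was lost without replicate 2 or 3 of the higher dose (adjusted p = 0.0757 and 0.0704) and without replicate 1 of the lower dose (adjusted p = 0.098). THBS1, or thrombospondin, a secreted matrix glycoprotein, had 11.69, 11.76 and 11.93 at 100 µg/ml, against 10.62, 11.03 and 10.88 at 10 µg/ml, a rise of 0.95 ± 0.17 (adjusted p = 0.0034). Its other bright probe sets differed by 1.05 and 1.21, and without replicate 1 of the lower dose, the lowest array, the adjusted p was 0.0521. F3, or tissue factor, which starts blood clotting, had 11.85, 11.83 and 11.94 at 100 µg/ml, against 10.85, 11.22 and 10.97 at 10 µg/ml, and rose by 0.86 ± 0.11 (adjusted p = 8.3e-05). The lower dose lay among the unexposed arrays (11.04, 10.71 and 11.24).

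The remaining YAP targets rose by less. DLC1, a GTPase-activating protein, rose by 0.47 ± 0.11, FJX1, a secreted protein, by 0.37 ± 0.073, and AMOTL2, an angiomotin that holds YAP back, by 0.32 ± 0.052 (adjusted p = 0.0418, 0.00913 and 0.000806). CCN2, or connective tissue growth factor, averaged 13.96 ± 0.029 at 100 µg/ml and 13.62 ± 0.064 at 10 µg/ml, a rise of 0.35 ± 0.074 (adjusted p = 0.0192) near the top of the scale. CCN1, its close relative, differed by 0.23 ± 0.065 with an adjusted p of 0.167, a value looked up after the others were seen. Among proteins that work with TEAD but were not in the list, VGLL3 rose by 0.43 ± 0.1 to a level still below the table median. Fits without 1 array ended the calls of DLC1 in 5 (adjusted p up to 0.337), FJX1 in 3 (adjusted p up to 0.094), CCN2 in 5 (adjusted p up to 0.122) and VGLL3 in 5 (adjusted p up to 0.261).

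**Figure D2:**
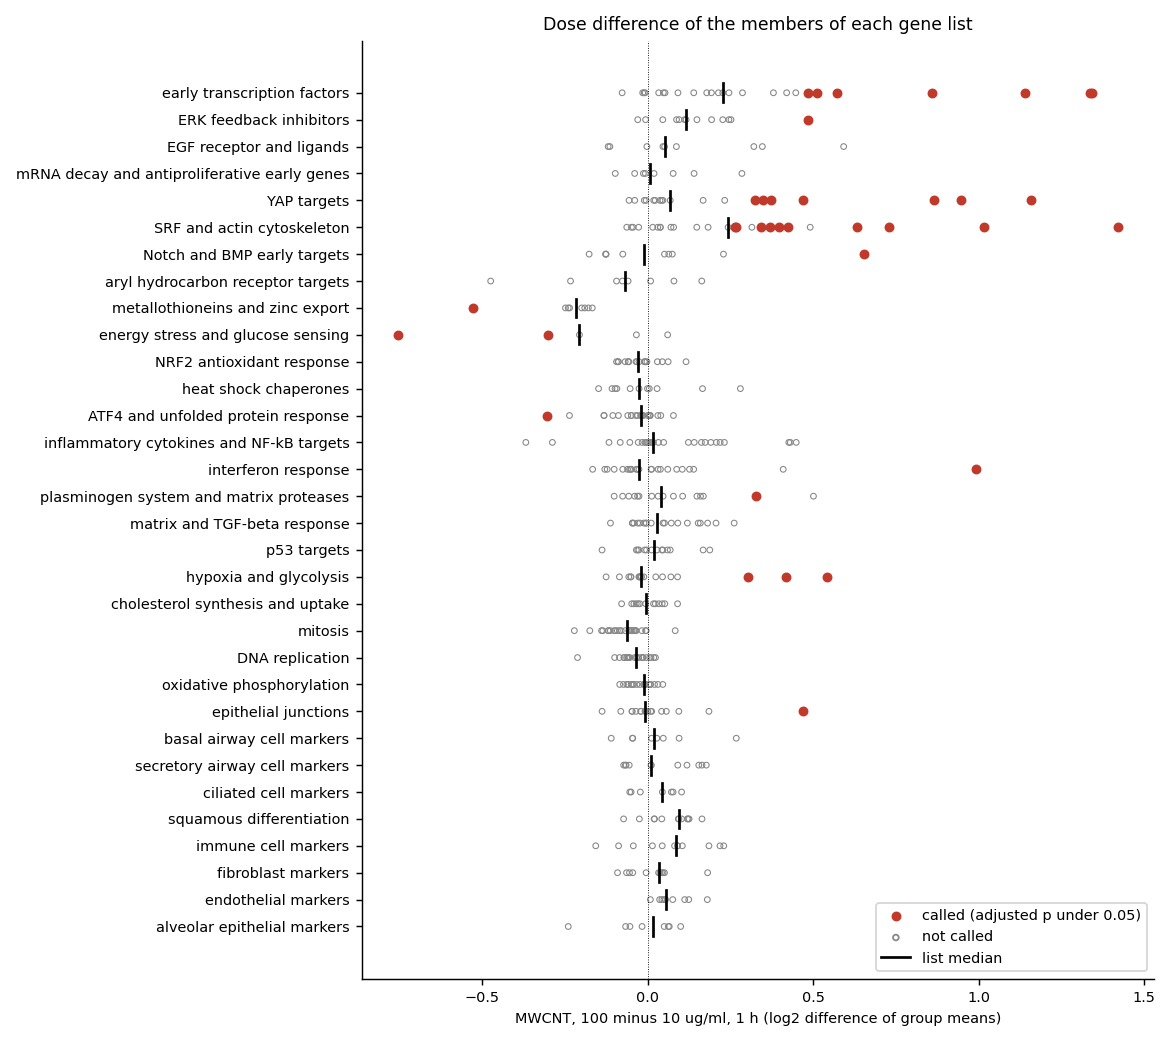
Difference between MWCNT 100 and 10 µg/ml at 1 h (log2) for every measured gene of the lists, each point a gene, coloured where it was called, and each bar the median of a list. The list of SRF and actin genes (10 of 25 called) and that of early transcription factors (7 of 25) reach furthest to the right, and all 8 metallothionein and zinc export genes lie left of 0.

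Further called genes encode secreted proteins, receptors and their adaptors, a grouping made after the calls were known. GLIPR1, a secreted or membrane protein of the CAP family, had 9.57, 9.92 and 10.03 at 100 µg/ml, against 8.32, 8.49 and 8.51 at 10 µg/ml. All arrays of the lower dose were already above the unexposed ones (7.31, 7.47 and 7.87), and the further rise was 1.40 ± 0.17, 2.64-fold (adjusted p = 3.64e-05). DKK1, a secreted inhibitor of Wnt signalling, had 11.88, 11.87 and 11.95 at 100 µg/ml, against 10.98, 11.17 and 11.005 at 10 µg/ml, and rose by 0.85 ± 0.13 (adjusted p = 0.000368). The higher dose varied by less than 0.1 between its arrays. PTGER4, a receptor for prostaglandin E2, had 11.13, 11.07 and 11.003 at 100 µg/ml, against 10.08, 10.41 and 10.20 at 10 µg/ml, a rise of 0.84 ± 0.11 (adjusted p = 9.73e-05), or of 0.56 with the mean of all its probe sets. The adenosine receptor ADORA2B, which like PTGER4 raises cyclic AMP, rose by 0.34 ± 0.071 (adjusted p = 0.0142). JAG1, a ligand of Notch receptors, averaged 10.90 ± 0.028 at 100 µg/ml and 10.24 ± 0.14 at 10 µg/ml and rose by 0.65 ± 0.091 (adjusted p = 0.000131). It was the 1 called member of 10 measured Notch and BMP early genes, against 0.56% of all genes higher. GREM1, a secreted antagonist of BMPs, rose by 0.67 ± 0.15 at levels below the table median (6.42 ± 0.31 at 100 µg/ml and 5.75 ± 0.15 at 10 µg/ml). BDNF, a neurotrophin, rose by 0.40 ± 0.095, the peptide hormone ADM, or adrenomedullin, by 0.42 ± 0.076, the surface protein CD200 by 0.33 ± 0.074 and the death receptor TNFRSF21 by 0.27 ± 0.058. IRS2, which couples the insulin receptor to its kinases, rose by 0.43 ± 0.063 with 3 arrays of the higher dose that differed by under 0.05. Without 1 of the 6 arrays, calls were lost by ADORA2B in 3 (adjusted p up to 0.141), GREM1 in 4 (adjusted p up to 0.22), BDNF in 6 (adjusted p up to 0.354), ADM in 1 (adjusted p up to 0.0521), CD200 in 5 (adjusted p up to 0.201) and TNFRSF21 in 3 (adjusted p up to 0.196).

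Clotting and plasminogen genes besides F3 were represented by 2 further receptors. THBD, or thrombomodulin, which turns thrombin towards its anticoagulant role, averaged 10.17 ± 0.048 at 100 µg/ml and 9.63 ± 0.13 at 10 µg/ml and rose by 0.54 ± 0.12 (adjusted p = 0.0409). PLAUR, the receptor of urokinase, rose by 0.33 ± 0.069 (adjusted p = 0.0179). It was the 1 called gene of 16 in the plasminogen and matrix protease list, against 0.56% of all genes higher. These calls were lost without 1 array by THBD in 5 (adjusted p up to 0.263) and PLAUR in 3 (adjusted p up to 0.159). Both were also lost with the mean of all probe sets of a gene, which gave 0.46 (adjusted p = 0.063) for THBD and 0.17 (adjusted p = 0.475) for PLAUR.

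Kinases and their inhibitors were called as well. MAP3K8, a kinase that feeds into the ERK pathway, had 7.81, 7.71 and 7.73 at 100 µg/ml, against 6.86, 7.12 and 6.96 at 10 µg/ml, and rose by 0.77 ± 0.13 (adjusted p = 0.00109). All arrays of the higher dose were above the table median and all of the lower dose below it. Of 13 measured feedback inhibitors of ERK, 1 rose, against 0.56% of all genes, and the median was 0.115. The called gene was the nuclear phosphatase DUSP5, with a rise of 0.48 ± 0.08 (adjusted p = 0.00109). DUSP1 and DUSP6, read after the calls were known, differed by 0.23 ± 0.062 and 0.15 ± 0.13 (adjusted p = 0.15 and 0.929). TRIB1, a pseudokinase, rose by 0.44 ± 0.10, WEE1, which holds cells before mitosis, by 0.38 ± 0.054 (adjusted p = 0.0486 and 0.000188), and the cell cycle regulator RGCC by 0.40 ± 0.075 (adjusted p = 0.00503). Without single arrays the call ended for TRIB1 in 6 (adjusted p up to 0.261) and RGCC in 1 (adjusted p up to 0.0516). Of 9 genes of the EGF receptor and its ligands, 0 passed, where 0.635% of all genes did. The largest difference was that of epiregulin, EREG, at 0.59 ± 0.15 (adjusted p = 0.0835).

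GBP1, a GTPase known from the interferon response, had 10.99, 11.10 and 11.19 at 100 µg/ml, against 9.83, 10.34 and 10.13 at 10 µg/ml, and rose by 0.99 ± 0.13 (adjusted p = 8.3e-05). Replicate 1 was lowest and replicate 2 highest at the lower dose, and the other bright probe set gave 1.13. It was the 1 called gene of 23 in the interferon list, whose median was -0.027. Beside the counts of this list and of the hypoxia and junction lists below, 0.56% of all genes rose. PELO, which rescues stalled ribosomes, was among the most tightly replicated genes with 10.43 ± 0.014 at 100 µg/ml and 9.85 ± 0.011 at 10 µg/ml (SD, n = 3 each), a rise of 0.58 ± 0.045 (adjusted p = 1.3e-08) that shrank to 0.26 with the mean of all its probe sets. PFKFB3, which makes an activator of glycolysis, rose by 0.54 ± 0.085 (adjusted p = 0.000687) and was called with ADM and KDM3A among 19 genes of hypoxia and glycolysis, whose median was -0.0199. NOCT, a phosphatase of NADP with a circadian rhythm, rose by 0.54 ± 0.086 (adjusted p = 0.000794) and the tight junction protein CLDN1 by 0.47 ± 0.099 at a level below the table median, the 1 called gene of 17 in the junction list. CLDN1 lost its call in 4 of the 6 fits without 1 array (adjusted p up to 0.152). ENC1 rose by 0.60 ± 0.12, PXDC1 by 0.41 ± 0.059, CHIC2 by 0.33 ± 0.066 and the GTPase-activating protein ARHGAP6 by 0.34 ± 0.07, the last at a very low level (4.14 ± 0.064 at 100 µg/ml and 3.80 ± 0.025 at 10 µg/ml). Calls in this set were lost without 1 array by ENC1 in 4 (adjusted p up to 0.111), CHIC2 in 3 (adjusted p up to 0.101) and ARHGAP6 in 4 (adjusted p up to 0.103), and the call of BCL10 in 5 (adjusted p up to 0.12).

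Among the 9 lower genes, the largest fall was in DDIT4, which energy and oxygen stress induce. It had 10.53, 10.33 and 10.28 at 100 µg/ml, against 11.20, 11.08 and 11.12 at 10 µg/ml and 11.38, 11.36 and 11.19 in unexposed cells. The groups of both doses stood more than 0.5 apart, and the difference was -0.75 ± 0.097, a level at 100 µg/ml that was 0.593 times that at 10 µg/ml (adjusted p = 8.11e-05). TXNIP, which restrains glucose uptake and binds thioredoxin, had 11.92, 11.86 and 11.79 at 100 µg/ml, against 12.16, 12.14 and 12.17 at 10 µg/ml, a difference of -0.30 ± 0.045 (adjusted p = 0.000354). Replicate 3 of the higher dose was the lowest, and the other bright probe sets gave -0.37 and -0.31. With these, 2 of the 5 measured genes of energy stress and glucose sensing (12 were listed) fell and 0 rose. Of all genes 0.0752% fell and 0.56% rose. SLC30A1, which exports zinc and is itself induced by zinc, had 10.27, 10.52 and 10.42 at 100 µg/ml, against 10.94, 10.95 and 10.89 at 10 µg/ml, a difference of -0.53 ± 0.065 (adjusted p = 4.26e-05). Replicate 1 of the higher dose was lowest, and all 3 of that dose lay below all unexposed arrays. The metallothioneins, small proteins that bind zinc and copper, stood with SLC30A1 in a list of 8. Of these, 0 were above 0 and the median was -0.218, against 5430 of 11963 and -0.00836 for all genes. None of the other 7 passed, and their differences ran from -0.25 in MT2A (adjusted p = 0.53) to -0.17 in MT1H (adjusted p = 0.863), near-identical genes whose probes can share RNA. The median of the 8 was not confined to this comparison. Between the same MWCNT doses at 24 h it was -0.311, against -0.0019 for all genes, with 0 calls. With TiO2 at 1 h it was -0.196, against -0.0104 for all genes.

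DDIT3, a factor of the unfolded protein and integrated stress response also known as CHOP, had 10.26, 10.23 and 10.07 at 100 µg/ml, against 10.55, 10.45 and 10.48 at 10 µg/ml, a difference of -0.31 ± 0.069 (adjusted p = 0.034). It was the 1 called gene of 23 in the list of that response, against 0.0752% of all genes lower and 0.56% higher. Its regulator ATF4, looked up afterwards, differed by -0.036 ± 0.041 (adjusted p = 0.943). PPP1R3D, which brings a phosphatase to glycogen, had 7.68, 7.81 and 7.87 at 100 µg/ml, against 8.15, 8.13 and 8.15 at 10 µg/ml, a difference of -0.36 ± 0.078 (adjusted p = 0.0265). The zinc finger protein ZNF350 had 7.01, 7.26 and 7.41 at 100 µg/ml, against 7.56, 7.62 and 7.78 at 10 µg/ml, a difference of -0.42 ± 0.094 (adjusted p = 0.0277). In each of these the groups were separate by under 0.3 at their nearest arrays, and each lost its call in fits without 1 array: DDIT3 in 5 (adjusted p up to 0.222), PPP1R3D in 5 (adjusted p up to 0.258) and ZNF350 in 5 (adjusted p up to 0.343). ZNF223, FRAT1, an inhibitor of GSK3, and CDHR5 had differences of -0.50, -0.33 and -0.30 at levels below the table median, and CDHR5 lost its call in 5 of those fits (adjusted p up to 0.149). With the mean of all probe sets of a gene the calls of CDHR5 and PPP1R3D were also lost, with -0.12 (adjusted p = 0.831) for CDHR5 and -0.23 (adjusted p = 0.163) for PPP1R3D.

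In the other pathway lists no gene passed, and of each the member with the largest difference is named. Since 0.635% of all genes were called, 0 calls in a short list say little about it. The NRF2 antioxidant list had 18 measured genes and a largest difference of 0.12 ± 0.049 in TXNRD1 (thioredoxin reductase), and the 11 heat shock chaperones one of 0.28 ± 0.10 in CRYAB. Of 27 inflammatory cytokines and NF-kB targets, the chemokine CCL20 differed most, by 0.45 ± 0.24 (adjusted p = 0.802), with a median of 0.0167. The 14 p53 targets had a largest difference of 0.19 ± 0.068 in GADD45B, and the 20 matrix and TGF-beta genes one of 0.26 ± 0.11 in ITGA5, an integrin subunit. CYP1B1, a cytochrome induced by the aryl hydrocarbon receptor, differed most of 8 such targets, by -0.47 ± 0.24 (adjusted p = 0.772), with 11.03 ± 0.12 at 100 µg/ml and 11.51 ± 0.074 at 10 µg/ml. The 26 mitosis genes held 1 difference above 0, with a median of -0.063 and -0.22 ± 0.11 in the kinase TTK, and the 24 DNA replication genes 4, with a median of -0.0371 and -0.21 ± 0.072 in the cyclin CCNE2. Of all 11963 genes 5430 were above 0, with a median of -0.00836. The 13 cholesterol genes (0.09 in INSIG1), 21 oxidative phosphorylation genes (-0.085 in UQCRB) and 8 mRNA decay genes (0.28 in ZFP36L1) had medians of -0.0069, -0.0112 and 0.0055.

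Markers of the cell types such cultures could hold had 0 calls. With 0.635% of all genes called, 0 calls in lists this short say little about their members. The median difference was 0.0191 for 8 basal markers, 0.0102 for 11 secretory markers, 0.0439 for 7 ciliated markers and 0.0929 for 12 squamous markers. The 9 endothelial markers were all above 0, with a median of 0.0535 and a summed log2 level of 47.11 to 47.80 at 100 µg/ml and 46.58 to 47.03 at 10 µg/ml, and none had a mean above the table median. For 12 immune markers the median was 0.0852 and the summed level 65.20 to 66.37 at 100 µg/ml and 64.41 to 65.56 at 10 µg/ml, with the leukocyte protein PTPRC at 3.61 ± 0.12 at 100 µg/ml and 3.53 ± 0.032 at 10 µg/ml. The part of these shifts in the results was not tested. The medians of the 11 fibroblast and 8 alveolar markers were 0.0325 and 0.016.

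Set beside unexposed cells of the same time, the 76 genes differed from them mostly at the higher dose. These values share the exposed arrays with the comparison of doses and are a description. Against the unexposed cells, 8 genes (0.0669%) were called at 10 µg/ml and 203 (1.7%) at 100 µg/ml. Before adjustment, 1383 genes at 10 µg/ml and 1427 at 100 µg/ml had a limma p under 0.05, both against the same 3 unexposed arrays. In the 67 higher genes the median difference from unexposed cells was 0.126 at 10 µg/ml and 0.6 at 100 µg/ml. At 10 µg/ml 50 of the 67 were above unexposed cells and 27 within 0.1 of them, and at 100 µg/ml all 67 were above. KLF7 was the 1 gene in which the lower dose reached at least 50% of the difference of the higher dose, with 0.53 at 10 µg/ml (adjusted p = 0.00089) and 1.01 at 100 µg/ml. EGR3 and GLIPR1 had large differences at both doses, 1.14 at 10 µg/ml and 2.48 at 100 µg/ml for EGR3, and 0.89 and 2.29 in the same order for GLIPR1. By contrast, F3 differed by 0.016 at 10 µg/ml and 0.88 at 100 µg/ml, NR4A3 by 0.013 and 1.15, and MAP3K8 by -0.10 and 0.67. In the 9 lower genes the median was 0.0515 at 10 µg/ml and -0.29 at 100 µg/ml, and 3 of them were below unexposed cells already at 10 µg/ml, DDIT4 (-0.18), SLC30A1 (-0.14) and TXNIP (-0.063). ARHGAP6 was lower at 10 µg/ml (-0.25) and close to unexposed cells at 100 µg/ml (0.089).

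**Figure D3:**
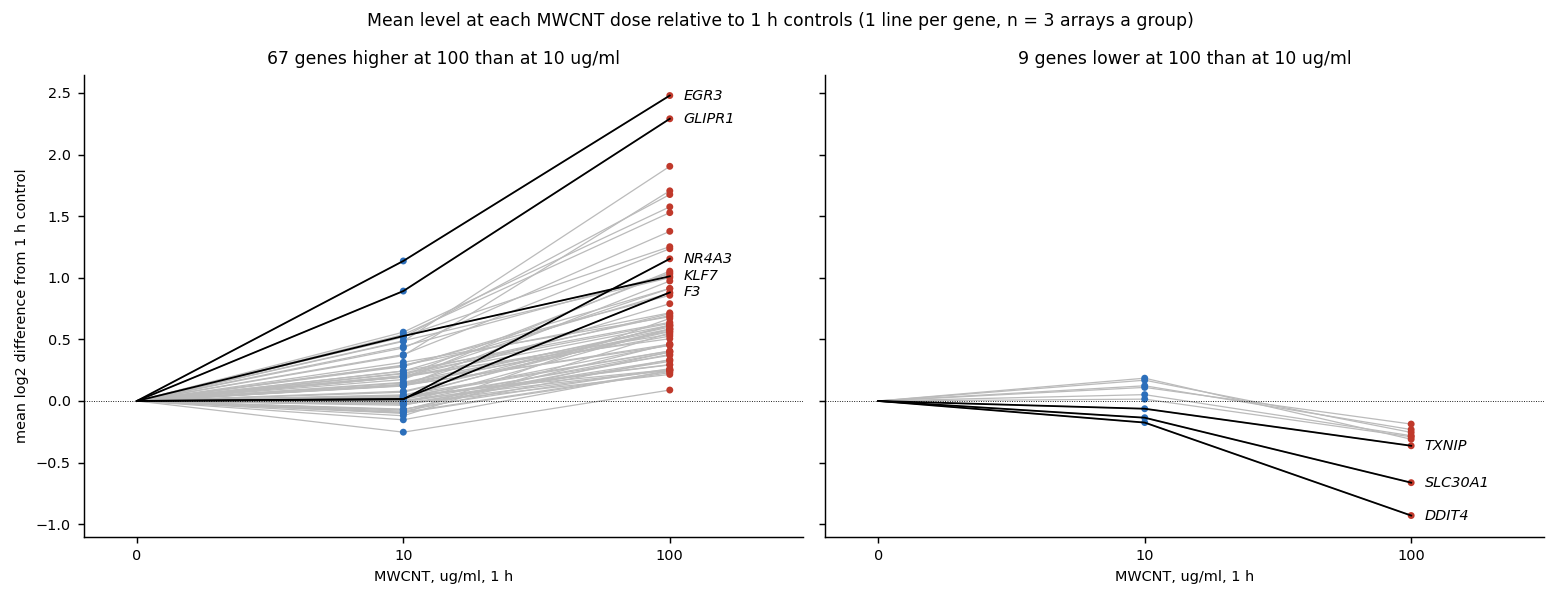
Difference from unexposed cells at 1 h (log2, y axis) at 0, 10 and 100 µg/ml MWCNT for the called genes, the 67 higher on the left and the 9 lower on the right, each line a gene's group means (n = 3 arrays) with named genes in black. The median of the 67 higher genes is 0.126 at 10 µg/ml and 0.6 at 100 µg/ml, and that of the 9 lower genes 0.0515 and -0.29.

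The same step of dose with TiO2 at 1 h, made of 6 other arrays, called 35 genes (0.293%), 32 higher and 3 lower. Of the 67 genes that rose with MWCNT, 66 had a difference above 0 with TiO2, as did 43.4% of all genes, and 30 were called higher. Of the 9 lower genes 8 were below 0 and 3 were called, DDIT4 (-0.45), SLC30A1 (-0.40) and TXNIP (-0.21). The 33 shared genes are 43.4% of the 76 and 94.3% of the 35. Across the 76 genes, whose points come from the same arrays and were chosen on the MWCNT difference, Pearson's r between the 2 particles was 0.93, and across all 11963 it was 0.19, genes not being independent replicates. The 2 genes called with TiO2 alone were the stress factor ATF3, with 0.38 ± 0.11 for MWCNT and 0.64 ± 0.11 for TiO2, and PLK2, a kinase of the polo family, with 0.25 ± 0.09 for MWCNT and 0.44 ± 0.09 for TiO2.

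In 71 of the 76 genes, which were called on the MWCNT arrays, the difference was smaller in size with TiO2, with a median of 0.468 for MWCNT and 0.346 for TiO2 in the higher genes and -0.355 and -0.156 in the lower genes. A difference between the dose effects of the particles was not shown for any gene, since 0 of 11963 (0%) passed that test in limma, 570 had p under 0.05 before adjustment, and UGT2B15 had the lowest adjusted p, 0.669. The interval of the difference of effects (MWCNT minus TiO2, 95%) was -0.43 to 0.59 for EGR3, -0.24 to 0.59 for FILIP1L, -0.017 to 0.54 for NR4A1 and -0.41 to 0.43 for FOSB. These intervals leave room for effects that differ by more than 0.4, and so do not show that the particles act alike. For ANKRD1 the dose difference was 1.16 ± 0.22 with MWCNT and 0.68 ± 0.22 with TiO2, and the interval ran from -0.18 to 1.13. JAG1 (0.65 with MWCNT, 0.32 with TiO2), ENC1 (0.60 and 0.23) and NOCT (0.54 and 0.16) had intervals above 0, 0.065 to 0.59, 0.028 to 0.71 and 0.13 to 0.63, but adjusted p values of 0.944, 0.997 and 0.944. ARHGAP6 was the 1 higher gene with the opposite sign in TiO2 (-0.10), and CDHR5 the 1 lower gene (0.015). BCL6 (0.47 with MWCNT, 0.52 with TiO2) and GREM1 (0.67 and 0.74) were among the 5 genes with the larger difference in TiO2.

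**Figure D4:**
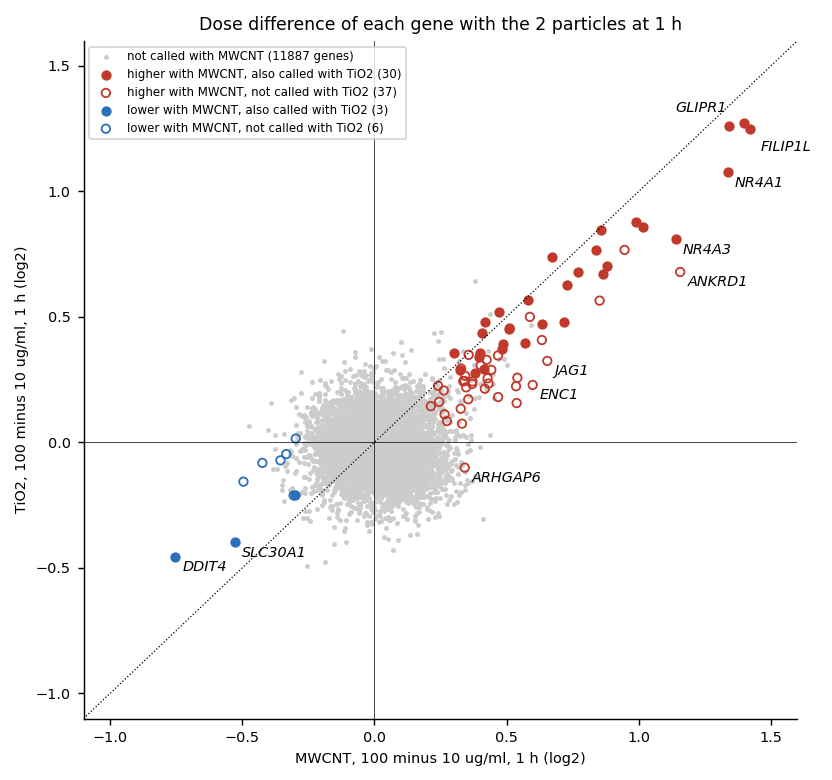
Difference between 100 and 10 µg/ml at 1 h (log2) with MWCNT on the x axis and with TiO2 on the y axis, for all genes in grey and the 76 called genes in colour by direction and by whether TiO2 also called them. The called points run along the line of equal differences and mostly below it in size, with 66 of 67 higher genes above 0 for TiO2.

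At 24 h the same step of MWCNT dose called 0 genes (0%) in limma, while 268 had a p under 0.05 before adjustment. The lowest adjusted p, 0.871, was that of CCN2. Of the 67 higher genes 26 had a difference above 0 at 24 h, with a median of -0.0202, and of the 9 lower genes 4 were below 0. In 75 of the 76, which were called on the 1 h arrays, the difference was smaller in size at 24 h, and Pearson's r between the times was 0.227 across the 76 genes and 0.0817 across all. CCN2 alone had a larger one, with 0.35 ± 0.074 at 1 h and -0.35 ± 0.074 at 24 h, in the opposite direction. The test of the difference between the times called 26 genes (0.217%), 25 with the more positive difference at 1 h, CCN2 among them, and 1, TXNIP, with the more negative one. EGR3 differed by 1.34 at 1 h and -0.035 at 24 h, with an interval at 24 h of -0.39 to 0.32 and a difference of effects of 1.38 ± 0.25 (adjusted p = 0.00916). For NR4A1 the values were 1.34 at 1 h and -0.036 at 24 h, with a difference of effects of 1.37 ± 0.13 (adjusted p = 3.91e-06), and for PTGER4 0.84 and -0.21 (1.05 ± 0.16, adjusted p = 0.00174). SRF gave 0.57 at 1 h and -0.019 at 24 h (adjusted p = 0.00174), and FILIP1L 1.42 and 0.083 (adjusted p = 0.00174). Not every large effect passed this test, as ANKRD1 had 1.16 at 1 h and 0.30 at 24 h (adjusted p = 0.917), TAGLN 1.02 and 0.048 (0.203) and DDIT4 -0.75 and -0.18 (0.114). SLC30A1 had differences below 0 at both times, -0.53 ± 0.065 at 1 h and -0.18 ± 0.065 at 24 h, with a 24 h interval of -0.31 to -0.043 that was not adjusted for the number of genes. The count of 26 was 9 without replicate 1 of the 10 µg/ml arrays at 1 h and 16 without replicate 3 of the 100 µg/ml arrays at 1 h.

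**Figure D5:**
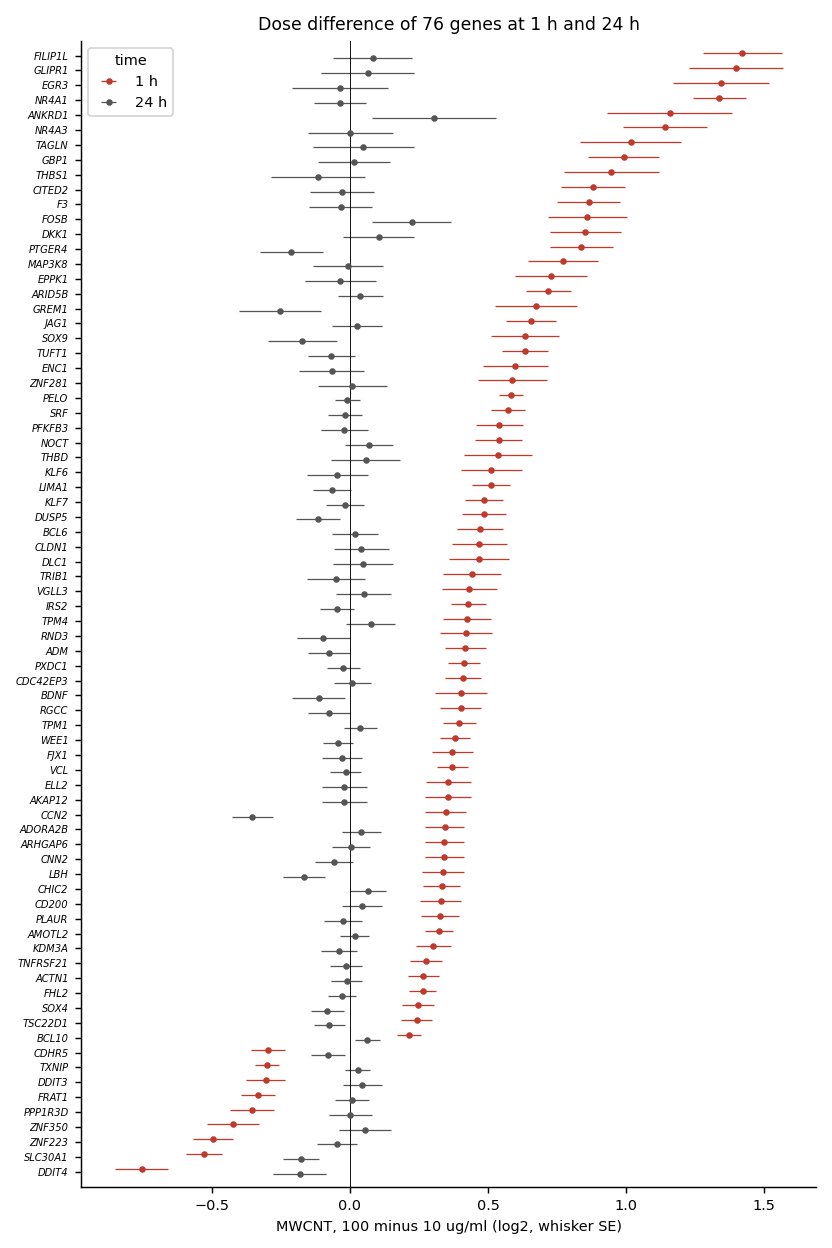
Difference between MWCNT 100 and 10 µg/ml (log2, whiskers SE) at 1 h in red and at 24 h in grey for the 76 genes called at 1 h, in order of their 1 h difference. The 24 h points scatter around 0, with CCN2 (-0.35) the furthest from it.

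Where a called gene had other probe sets above the table median, they could be set beside the one tested. This held for 18 genes with 26 such probe sets, and all 18 genes had the same sign in them. In 17 of the 18 the other probe sets averaged at least 50% of the difference of the one tested, NR4A1 being the exception. Over the 17 higher genes among them the median was 0.428 for the tested probe sets and 0.421 for the others. The mean of all probe sets of a gene, dim ones included, also ended the calls of SOX4, at 0.23 (adjusted p = 0.186), and ARHGAP6, at 0.23 (adjusted p = 0.243).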

How the data were processed

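RNA of the 30 arrays was measured as biotin-labelled cRNA on Affymetrix arrays, per the labels' protocols. The deposited table holds log2 values. Per the submitters' processing notes the authors used RMA (robust multi-array averaging), of unstated version. RMA subtracts background, sets all arrays to 1 distribution and sums the probes of a set, so a shift shared by most genes cannot be seen. No further normalisation was applied.

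Of 22277 probe sets, 62 were array controls. In the platform annotation 19064 had a single gene symbol, 1043 several symbols and 2108 no symbol. Where several probe sets stood for a gene (4310 genes), the brightest on average was used, which left 11963 genes, and 6923 of them had a mean above the table median of 7.18. No 2 arrays held identical values.

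In limma 3.58.1 (R 4.3.3) every gene had a mean for each of 10 groups of 3 arrays, with moderated variances, 20 residual degrees of freedom before moderation, two-sided tests and Benjamini-Hochberg adjustment over all genes within a comparison at 0.05. "Rose", "fell" and "called" refer to genes that passed. The members, lists, motifs and tests were chosen with earlier results of these data known. Levels by array are given for up to 15 higher and 10 lower genes of largest difference with no overlap, provided the group with more expression averaged above the table median, and up to 4 called genes of each list, or the one with the largest difference, could be named, while other called genes could be named freely. The main fit did not pair the arrays by replicate number. Residuals of the same number at the 2 doses correlated at 0.12, 0.067 and 0.012 across genes, and those of different numbers at -0.15 to 0.11. With 3 arrays a group these values cannot settle whether arrays of the same number shared a batch. The fit was tested on simulated data with known changes. Alternatives were the compared groups or the same time alone, a replicate block, a filter on dim genes, cyclic loess, array weights, the mean of all probe sets, an intensity trend and leaving out each array. Other tools were statmod 1.5.0, Python 3.11.15, numpy 2.4.6, pandas 2.3.3 and matplotlib 3.10.9. Promoters are those of RefSeq on GRCh38.p14.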

Additional observations from a re-analysis of the deposited data

Results flagged for a closer look

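The dose difference of MWCNT (100 minus 10 µg/ml) was more positive at 1 h than at 24 h in 25 genes and more negative in 1 by the test of the difference between the times. The values below are the 1 h minus the 24 h difference on the log2 scale. Among transcription factors and regulators it was 1.38 for EGR3, 1.37 for NR4A1, 1.14 for NR4A3, 0.91 for CITED2, 0.68 for ARID5B, 0.59 for SRF, 0.50 for KLF7 and 0.50 for LBH. Actin and adhesion genes gave 1.34 for FILIP1L, 0.70 for TUFT1, 0.57 for LIMA1 and 0.38 for VCL. Secreted proteins, receptors and signalling genes gave 1.33 for GLIPR1, 0.90 for F3, 1.05 for PTGER4, 0.63 for JAG1, 0.70 for CCN2, 0.50 for ADM, 0.48 for IRS2 and 0.60 for DUSP5. For CCN2 this came from 0.35 at 1 h and -0.35 at 24 h. The remaining higher genes were 0.98 for GBP1, 0.59 for PELO, 0.56 for PFKFB3, 0.44 for PXDC1 and 0.43 for WEE1, and TXNIP had -0.33. At 24 h EGR3, NR4A3, FILIP1L and DUSP5 averaged below the table median at both doses, and the others above it. The explanation was not tested. The 3 arrays of a group are too few for a test of single arrays that stand apart.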

How the results depend on the processing

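The 76 calls between MWCNT 100 and 10 µg/ml at 1 h became 38 (35 higher, 3 lower, 33 of them shared) when the fit held the 2 compared groups alone and 118 (98 higher, 20 lower, all 76 among them) with array weights, and leaving out 1 array gave 40 to 60. The 35 calls of TiO2 became 11 and 68 under those settings and 21 to 29 without 1 array, and the 26 of the difference between the times 68 with array weights and 9 to 27 without 1 array. At 24 h array weights called 1 gene, a lower one, and every other setting run called 0. The difference between the particles had 0 calls in every setting run. With the replicate block, which takes the numbers as paired though this was not shown, the counts were 69 for MWCNT, 36 for TiO2 and 21 for the difference between the times. Of the 76 genes, 26 kept their call in all alternatives that could be run for them (up to 15), 14 lost it in over 50% and 0 reversed. For the list members with the largest difference that were not called, 5 of 292 values in the alternatives passed. The cause of these changes was not tested. With 3 arrays a group, single genes have no exact p under 0.1, and dim genes near background are the least precise.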
